A study of Mus musculus with 12 samples.

Results

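Liver stores glucose as glycogen, and 9 genes of that pathway were followed here across mouse livers that differ in REV-ERB, a pair of nuclear receptors of the circadian clock. The 9 were taken by symbol from the 48537 genes of the deposited table: the protein phosphatase 1 (PP1) targeting subunits Ppp1r3b, Ppp1r3c and Ppp1r3g, the synthesis genes Gys2, Ugp2, Gbe1 and Gyg, and the breakdown genes Pygl and Phka2. All 9 were found, each in 1 row, and all had a mean of at least 1 TPM, the deposited unit of transcript abundance, over the 12 livers, the minimum for testing. Ppp1r3g reached that mean through its control livers alone, so that it was tested at all is no support for its difference. TPM is scaled to gene length and to the same total in each library, so levels of different genes can be set side by side.

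The samples were RNA-seq libraries of whole liver taken 10 h after lights on (zeitgeber time 10), in 3 groups of 4 livers. Control livers have the genotype wildtype and YFP in their titles. Livers labelled DKO have a double knockout of the REV-ERB genes (Nr1d1 encodes REV-ERBalpha, Nr1d2 REV-ERBbeta), again with YFP in their titles and with Cre in their deposited column names. Re-expression livers are named in their titles as DKO with REV-ERBalpha-WT, and their genotype label is REV-ERBalpha re-expressing. Cre is named in the columns of the livers labelled DKO only, so effects of Cre and of REV-ERB loss cannot be told apart in the comparison with control livers. The promoter behind Cre, the deleted part of each gene, and the age, sex and strain of the mice are not given in the sources used here. The labels describe each library as 1 separate liver, so the spread measured is that between livers.

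Each library held between 5621667 and 6906221 reads, recovered from the steps of the TPM values. Mean Nr1d1 was 191 TPM in re-expression livers, 82.5 in livers labelled DKO and 68.7 in control livers, while mean Nr1d2 was 97.7, 90.4 and 96.6 TPM in the same order. Neither gene was called lower in the livers labelled DKO (log2 differences of 0.26 and -0.09, Benjamini-Hochberg adjusted p = 0.173 and 0.792 in limma, a linear model of log2(TPM + 1) that borrows variance across genes). A gene is called where that adjusted p is under 0.05. Reads from beyond a deleted exon still count in such levels, which therefore do not check the deletion, and that group is called by its label throughout. The tissue label was met by hepatocyte markers, whose 8 genes summed to between 45072 and 51383 TPM in every liver. Control replicates 3 and 4 stood apart from control replicates 1 and 2 on the second principal component of all tested genes (-43.8 and -48.71 against 26.9 and 6.36, 12.5% of the variance), and values with either pair alone are given where a result rests on them. Summed markers of stellate cells ran from 131 to 176 TPM over control, 210 to 237 over DKO-labelled and 173 to 222 over re-expression livers. For Kupffer cells the ranges, in that order, were 292 to 775, 295 to 360 and 249 to 841 TPM. They were 158 to 172, 180 to 227 and 124 to 191 for sinusoidal endothelium, and 276 to 382, 399.9 to 686 and 372 to 835 for red blood cells. For cholangiocytes they were 74.5 to 105, 76.7 to 86.0 and 79.4 to 106. That sum was mostly Spp1, at 81.5, 69.0 and 80.9 mean TPM. Sox9 stood at 2.04, 8.97 and 6.58 mean TPM. Means of Krt19, Krt7 and Epcam, all at most 2.03 TPM, were also higher in both other groups than in control livers.

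Glycogen is built on the protein glycogenin (Gyg) by glycogen synthase (Gys2 in liver) from UDP-glucose, which Ugp2 makes, and is branched by Gbe1. Glycogen phosphorylase (Pygl in liver) takes it apart after activation by phosphorylase kinase, of which Phka2 is a regulatory subunit in liver. Kinases switch synthase off and phosphorylase on, and PP1 reverses both when a targeting subunit of the Ppp1r3 family holds it on the glycogen particle. Glycogen stores and several of these genes are known to follow feeding and the time of day.

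Sequences around RefSeq transcript starts of the members were searched for motifs of clock factors. REV-ERB binds DNA at the core motif AGGTCA and its A/T-rich extension, and other clock factors bind E-boxes (CACGTG) and D-boxes. RefSeq windows (GRCm38.p6, 250 bases before to 50 after a start) were at hand for 7 of the 9 members, as 8 windows. Ppp1r3b and Gys2 had no window and were not searched. Shown are the stretches outside annotated exons for the targeting subunits Ppp1r3c and Ppp1r3g, whose RNA differed, and for Pygl, the member with a core motif. Capitals mark a searched motif on either strand. The coordinates are chr19:36736654-36736854 on the minus strand for Ppp1r3c, chr13:35967656-35967852 on the plus strand for Ppp1r3g and chr12:70227684-70227840 on the minus strand for Pygl, each written 5′ to 3′ along the gene. The stretches of Ppp1r3g and Pygl lie inside the gene positions given below (35958839 to 35970388 and 70190811 to 70231488). They are therefore upstream of a RefSeq start but not of the whole gene.
Ppp1r3c: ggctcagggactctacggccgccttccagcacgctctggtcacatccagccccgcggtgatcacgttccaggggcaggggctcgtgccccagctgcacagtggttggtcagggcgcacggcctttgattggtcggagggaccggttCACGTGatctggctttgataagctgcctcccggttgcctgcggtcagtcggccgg
Ppp1r3g: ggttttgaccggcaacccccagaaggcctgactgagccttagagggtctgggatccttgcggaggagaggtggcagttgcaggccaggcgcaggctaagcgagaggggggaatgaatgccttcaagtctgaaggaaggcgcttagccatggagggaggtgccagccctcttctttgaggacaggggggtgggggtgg
Pygl: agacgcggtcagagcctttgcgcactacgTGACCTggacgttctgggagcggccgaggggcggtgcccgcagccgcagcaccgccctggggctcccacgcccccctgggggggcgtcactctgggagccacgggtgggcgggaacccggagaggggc

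The core motif AGGTCA, searched on both strands, stood in 1 of the 8 member windows, that of Pygl. There it reads TGACCT from 128 to 123 bases before the RefSeq start (positions -128 to -123), inside the gene. Among all 32851 RefSeq windows 16.3% held it. The extended element AANTAGGTCA and the direct repeat AGGTCANNAGGTCA, both of which contain the core, were in 0 of 8 member windows and in 0.219% and 0.00913% of all windows. An E-box stood in 2 of the 8, that of Ppp1r3c at positions -104 to -99 and that of Gyg at 8 to 13, against 7.15% of all windows. The D-box TTANGTAA was in 0 of 8 member windows and in 2.32% of all. These are matches of letters in short windows and describe no binding.

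In livers labelled DKO against control livers, the question was how RNA of the pathway differs between livers with and without the label of REV-ERB loss. Ppp1r3b and Ppp1r3c, the targeting subunits with the most RNA in liver, rose 2.75-fold and 3.75-fold as ratios of mean TPM, and Ppp1r3g, a further targeting subunit, fell to a few reads. The 6 enzyme and kinase genes were not called, with differences between -0.20 and 0.38 on the log2(TPM + 1) scale. So 2 of 9 members were called higher and 1 lower (limma, Benjamini-Hochberg adjusted p under 0.05). Of the 17957 tested genes, 2.99% were called higher and 2.34% lower. The members were chosen with earlier results of these data known, so such counts do not test them as a set in any comparison. The member called lower, Ppp1r3g, passed the minimum for testing through its control livers alone. The median difference was 0.064 over the 9 members and 0.001 over all tested genes. The livers of the 2 groups did not overlap for 4 members, 3 higher and 1 lower, and for 11.5% of all tested genes. With only control replicates 1 and 2 as controls, 1 member was called, Ppp1r3b, and with only control replicates 3 and 4, 3 were. In whole liver, fewer cells of a type and less RNA per cell cannot be told apart.

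**Figure D1:**
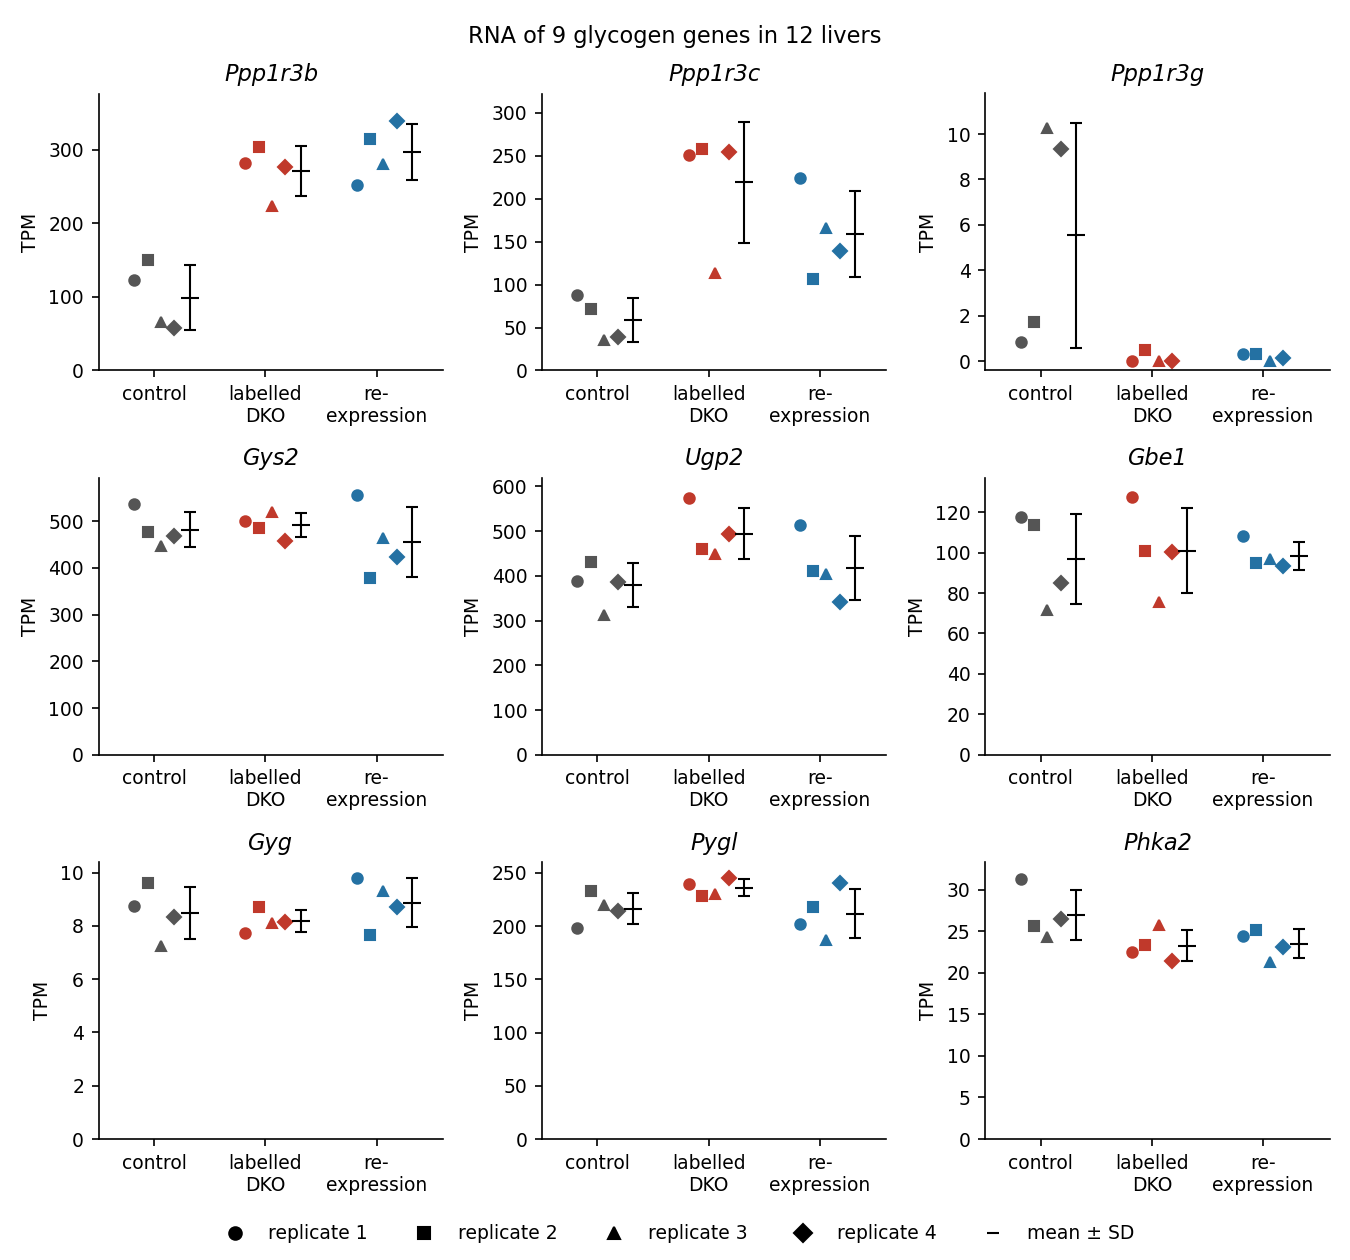
TPM of each of the 9 genes (vertical axes, each from 0 or just below) in control livers, livers labelled DKO and re-expression livers, with 1 marker shape per replicate number and the group mean ± SD (n = 4) beside it, left out where a liver was at 0. For Ppp1r3b every control liver sits at or below 149 TPM and every other liver at or above 224, whereas the 3 groups overlap for Gys2, Gbe1, Gyg, Pygl and Phka2.

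Ppp1r3b (chromosome 8, 35375739 to 35388139, plus strand, mm10) encodes the PP1 subunit known as GL, the main glycogen-targeting subunit of rodent liver. Its level was 123, 149, 65.3 and 57.8 TPM in control replicates 1 to 4, and 282, 304, 224 and 276 TPM in the livers labelled DKO. Every liver labelled DKO was above every control liver, and control replicates 3 and 4 were the lowest of all. The means were 98.8 ± 44.5 and 271 ± 33.9 TPM (SD, n = 4). On the log2 scale the rise was 1.55 ± 0.26 (SE, 95% interval 0.98 to 2.12, limma adjusted p = 0.00534), larger than the spread between livers. It was called in all 23 alternatives that were run (other scalings, filters, weights and models, or fewer livers), with adjusted p from 0.000108 to 0.0316. The rise measured 0.99 with only control replicates 1 and 2 as controls (adjusted p = 0.00793) and 2.12 with only control replicates 3 and 4, so its size moved with which control livers were used. Ppp1r3b shares its place with the gene model Gm45469 on the opposite strand, and no source used here says whether reads were counted by strand.

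Ppp1r3c (chromosome 19, 36731731 to 36736653, minus strand) encodes PTG, short for protein targeting to glycogen, which binds PP1, synthase and phosphorylase. Control livers held 87.6, 72.0, 35.6 and 38.6 TPM, and livers labelled DKO 251, 258, 113 and 254 TPM. DKO replicate 3 was far under the other three livers of its label, yet still above every control liver. Means were 58.5 ± 25.5 and 219 ± 70.6 TPM, and the log2 rise was 1.92 ± 0.35 (SE, 95% interval 1.14 to 2.69, limma adjusted p = 0.00934). This call held in 22 of 23 alternatives. With only control replicates 1 and 2 as controls it was lost, at a difference of 1.38 (adjusted p = 0.0587).

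Ppp1r3g (chromosome 13, 35958839 to 35970388, plus strand) encodes a further glycogen-targeting subunit of PP1. In control livers it stood at 0.835, 1.75, 10.3 and 9.35 TPM, which rests on 5, 11, 56 and 51 reads. In the livers labelled DKO it was at 0, 0.511, 0 and 0 TPM, that is 3 reads in replicate 2 and none in the others. The groups did not overlap, but nearly all the control signal came from control replicates 3 and 4, the livers with the least Ppp1r3b and Ppp1r3c. A count of 0 in DKO replicates 1, 3 and 4 allows a level of up to 0.464 to 0.539 TPM (3 reads), so loss below that level was not detectable.

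The log2 difference of Ppp1r3g was -2.15 ± 0.52 (SE, 95% interval -3.29 to -1.01, limma adjusted p = 0.0356), on a scale that understates the change of a gene with so little RNA. In reads summed over 4 livers, 123 against 3, control livers held 41.4 times as many per sequenced read (exact 95% interval 13.8 to 204, for counting error only). That ratio was 9.94 (2.85 to 53.3) with control replicates 1 and 2 alone, from 16 reads, and 78.6 (26.2 to 387) with control replicates 3 and 4 alone, from 107 reads, and all 3 reads of the DKO label came from replicate 2. The call held in 10 of the 22 alternatives that could test the gene, with adjusted p from 0.000325 to 0.103. It was lost without control replicate 3 (0.0836) or 4 (0.0785), without any 1 of the DKO replicates 1 to 4 (0.0916, 0.0575, 0.0796 and 0.0906), and without re-expression replicate 2 (0.0513) or 4 (0.0516). It was also lost with no filter on low values (0.0542), with the 8 libraries of the comparison alone (0.103) and with the replicate number as a block (0.0711). With only control replicates 1 and 2 as controls the difference was -1.02 (adjusted p = 0.0770), and a mean minimum of 5 TPM left the gene untested. The authors' deposited table, in the comparison whose values follow this contrast, lists a log2 fold change of -5.503 with an adjusted p of 3.09e-05 for Ppp1r3g. The authors' deposited table also lists 1.486 with 2.5e-11 for Ppp1r3b and 1.932 with 3.12e-07 for Ppp1r3c. The gene shares its place with Gm30127 on the opposite strand.

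Among the synthesis genes, Gys2 (chromosome 6, 142422613 to 142473109, minus strand), the synthase that lengthens glycogen, was among the most abundant members in every group. Control livers held 537, 476, 447 and 469 TPM and livers labelled DKO 501, 485, 519 and 459. The groups overlapped fully, and the difference was 0.03 (95% interval -0.21 to 0.26, limma adjusted p = 0.929), an interval that spans both directions.

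Ugp2 (chromosome 11, 21321138 to 21371201, minus strand) makes UDP-glucose, the sugar donor of synthase and of other pathways. Its level was 389, 432, 313 and 386 TPM in control livers and 574, 460, 448 and 493 TPM in livers labelled DKO. The groups did not overlap, and the ratio of means was 1.30, but limma did not call the gene over all tested genes (log2 difference 0.38 ± 0.13, SE, 95% interval 0.09 to 0.67, adjusted p = 0.141). It was called in 1 of 23 alternatives, voom on recovered reads (adjusted p = 0.0437). In the authors' deposited table its log2 fold change in the same contrast is 0.384, with an adjusted p of 0.0175.

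Gbe1 (chromosome 16, 70313949 to 70569716, plus strand), the branching enzyme gene, ran from 71.8 to 118 TPM in control livers and from 75.6 to 127 TPM in livers labelled DKO. Gyg (chromosome 3, 20122084 to 20155317, minus strand), whose product primes each glycogen particle, ran from 7.24 to 9.61 and from 7.74 to 8.72 TPM. Both sets of ranges overlapped. Differences were 0.06 for Gbe1 (95% interval -0.32 to 0.44, limma adjusted p = 0.897) and -0.04 for Gyg (95% interval -0.27 to 0.19, limma adjusted p = 0.893).

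On the breakdown side, Pygl (chromosome 12, 70190811 to 70231488, minus strand), the liver phosphorylase, held 198, 233, 220 and 214 TPM in control livers and 240, 229, 230 and 245 in livers labelled DKO. Phka2 (chromosome X, 160502166 to 160598878, plus strand), the regulatory subunit of phosphorylase kinase, held 31.2, 25.7, 24.3 and 26.4 TPM against 22.6, 23.3, 25.8 and 21.5. The groups overlapped for both. Differences were 0.13 for Pygl (95% interval -0.05 to 0.30, limma adjusted p = 0.454) and -0.20 for Phka2 (95% interval -0.40 to 0.01, limma adjusted p = 0.298). The ratio of Gys2 to Pygl TPM within a liver averaged 2.24 ± 0.318, 2.08 ± 0.160 and 2.18 ± 0.519 (SD, n = 4) over control, DKO-labelled and re-expression livers.

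**Figure D2:**
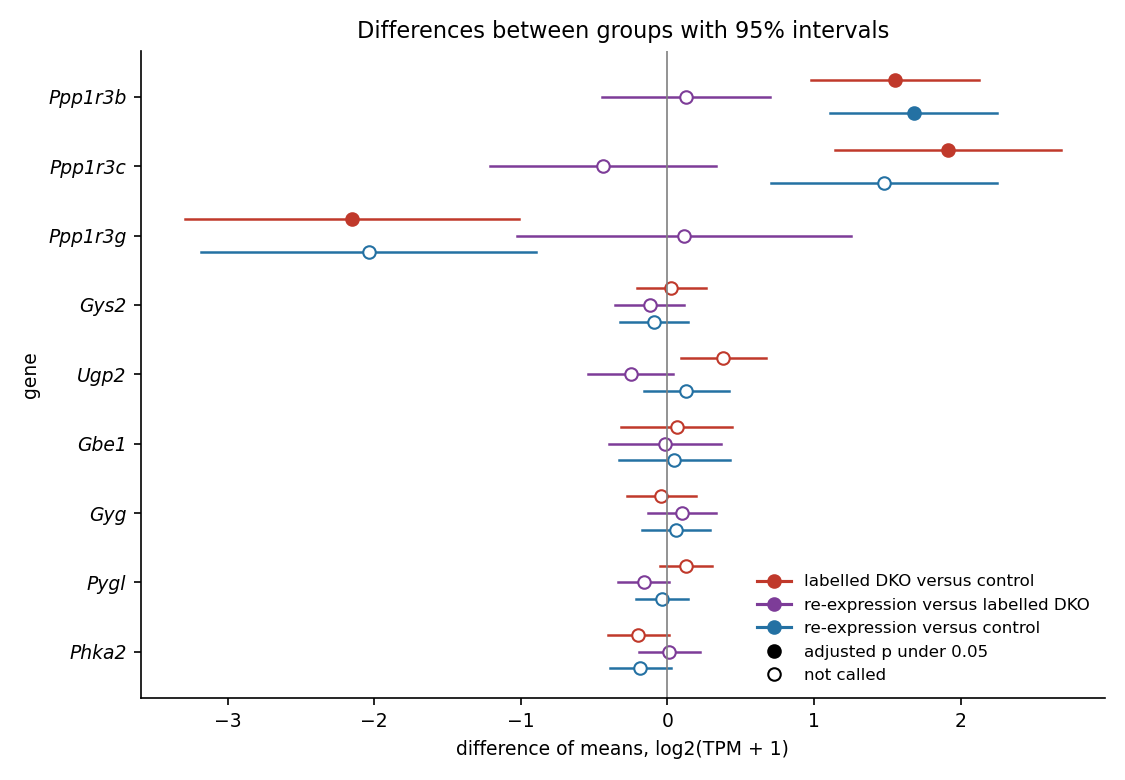
Differences between groups for each gene on the log2(TPM + 1) scale (horizontal axis) with 95% intervals from limma, for the 3 comparisons, with filled points where the adjusted p was under 0.05. The targeting subunits lie far from 0 in both comparisons with control livers and include 0 within the interval in the comparison of re-expression livers with livers labelled DKO.

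Re-expression livers were then set against livers labelled DKO, to ask what REV-ERBalpha changes in these genes once it is returned. None of the 9 members was called, and 0 of 9 had an unadjusted p under 0.05 (limma), against 6.19% of all tested genes, too low a share for 0 of 9 to set the members apart. Calls were rare over all genes too, at 0.0724% of tested genes or 13 genes. The groups overlapped for every member and did not for 4.25% of all tested genes. Voom on recovered reads also called 0 of the 9.

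Ppp1r3b stood at 253, 314, 280 and 339 TPM in re-expression livers, a range that overlaps the 224 to 304 TPM of livers labelled DKO. The difference was 0.13 (95% interval -0.44 to 0.70, limma adjusted p = 1). Ppp1r3c stood at 224, 107, 166 and 139 TPM, all of them below DKO replicates 1, 2 and 4. With DKO replicate 3 at 113 TPM the ranges overlapped, and the difference of -0.44 had a 95% interval of -1.21 to 0.33 (limma adjusted p = 1). Ppp1r3g was at 0.344, 0.329, 0 and 0.159 TPM, or 2, 2, 0 and 1 reads, all under the level that 3 reads give.

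For the remaining 6 members the differences lay between -0.25 and 0.10. Ugp2 had 514, 411, 404 and 341 TPM and a difference of -0.25 (95% interval -0.54 to 0.04, limma adjusted p = 0.914). Pygl had 202, 218, 187 and 241 TPM and a difference of -0.16 (95% interval -0.34 to 0.01, limma adjusted p = 0.883). Gys2 ranged from 378 to 556 TPM, a wider spread than the 459 to 519 TPM of the livers labelled DKO, with a difference of -0.12 (95% interval -0.35 to 0.11). The differences of Gbe1, Gyg and Phka2 were -0.02, 0.10 and 0.01. The median over the members was -0.016 and over all tested genes 0.013.

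Re-expression livers against control livers asks which differences from control remain when REV-ERBalpha is returned. This comparison shares its control livers with the first and its re-expression livers with the second, so the 3 sets of values are not independent. Here 1 of 9 members was called higher, Ppp1r3b, and 0 lower, where 1.16% of all tested genes were called higher and 0.663% lower. The groups did not overlap for 3 members, Ppp1r3b and Ppp1r3c higher and Ppp1r3g lower, and for 7.28% of tested genes. The median was 0.047 over the members and 0.011 over all tested genes.

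The rise of Ppp1r3b over control livers was 1.68 ± 0.26 (SE, 95% interval 1.11 to 2.25, limma adjusted p = 0.00706), a ratio of mean TPM of 3.001. It was called in 23 of 23 alternatives (adjusted p from 0.000106 to 0.0481). With control replicates 1 and 2 alone as controls it measured 1.12, and with replicates 3 and 4 alone 2.24. Set side by side, its difference from the same 4 control livers was 1.55 for the DKO label and 1.68 for re-expression.

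Ppp1r3c was 2.72-fold higher in mean TPM than in control livers, and every re-expression liver was above every control liver. Its log2 difference of 1.48 ± 0.35 (SE, 95% interval 0.71 to 2.25) missed the threshold over all tested genes (limma adjusted p = 0.0612). It was called in 6 of 23 alternatives. These included a mean minimum of 5 TPM (0.0431), size factors (0.0461) and voom (0.0107). The others left out control replicate 1 (0.0462), left out DKO replicate 3 (0.0352), or kept control replicates 3 and 4 alone as controls (0.0326). With control replicates 1 and 2 alone as controls the difference was 0.94 and was not called. Ppp1r3g had a difference of -2.04 ± 0.52 (SE, 95% interval -3.18 to -0.90, limma adjusted p = 0.0808), from 123 reads over the control livers to 5. It was called in 2 of 22 alternatives, without control replicate 1 (0.0235) and with control replicates 3 and 4 alone (0.000569). With control replicates 1 and 2 alone the difference was -0.90 and was not called.

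The 6 enzyme and kinase genes showed differences from control between -0.18 and 0.13 in re-expression livers, none called. Phka2 was the lowest of these, at 24.5, 25.2, 21.2 and 23.1 TPM and a difference of -0.18 (95% interval -0.39 to 0.02, limma adjusted p = 0.475). Gyg, at 9.79, 7.66, 9.32 and 8.70 TPM, and Gbe1, at 108, 94.7, 96.9 and 93.5, differed from control by 0.06 and 0.05. Gys2 differed by -0.09 and Pygl by -0.03.

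**Figure D3:**
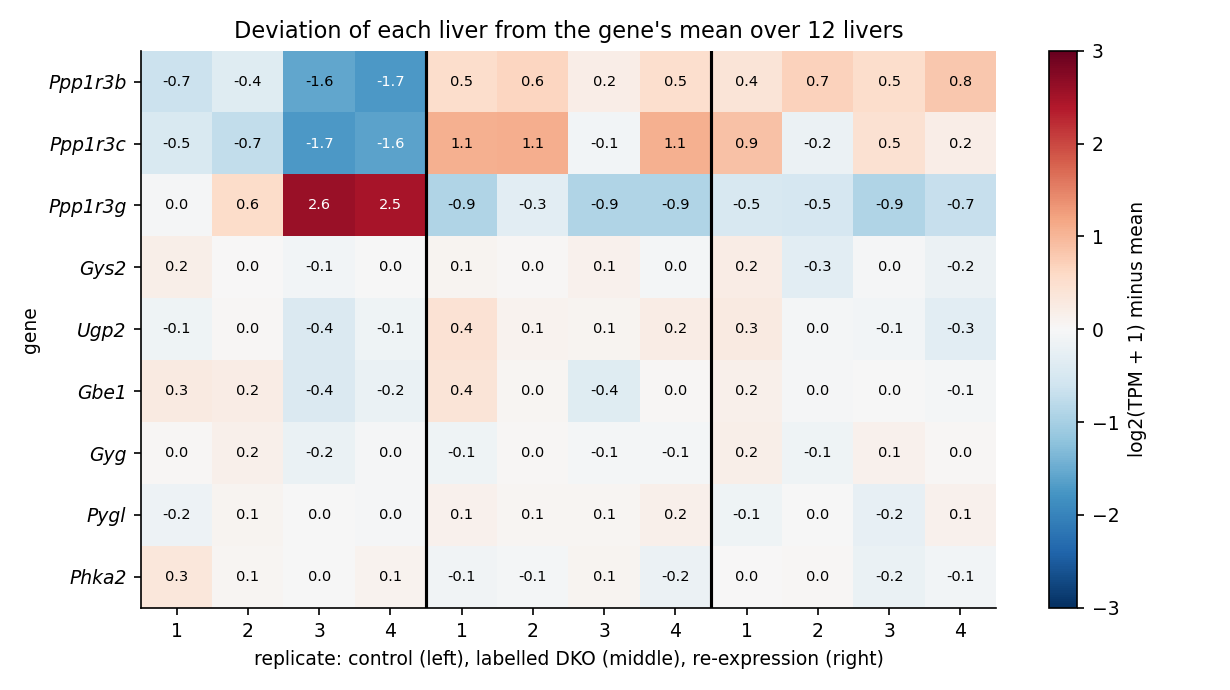
Deviation of each liver from the gene's mean over the 12 livers, on the log2(TPM + 1) scale, with 1 row per gene and 1 column per liver, the groups parted by black lines. Rows of the targeting subunits hold the largest deviations, and within the control livers replicates 3 and 4 are lowest for Ppp1r3b and Ppp1r3c and highest for Ppp1r3g.

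Levels can also be ordered by TPM within each group. In control livers the order was Gys2, Ugp2, Pygl, Ppp1r3b, Gbe1, Ppp1r3c, Phka2, Gyg and Ppp1r3g. Neighbours in it that did not differ beyond their spread were Ppp1r3b and Gbe1, with Ppp1r3b the higher in 2 of 4 livers, and Gyg and Ppp1r3g, also 2 of 4. The ranges of Gbe1 and Ppp1r3c touched as well, although Gbe1 was higher in 4 of 4 livers. In livers labelled DKO, Ppp1r3b and Ppp1r3c stood beside Pygl and above Gbe1: Ppp1r3b was above Pygl in 3 of 4 livers and Pygl above Ppp1r3c in 1 of 4. Ugp2 and Gys2 could not be ordered there (2 of 4 livers). In re-expression livers Ppp1r3b was above Pygl in 4 of 4 livers and Pygl above Ppp1r3c in 3 of 4.

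The 7 PP1 glycogen-targeting subunits measured (the 3 members with Ppp1r3a, Ppp1r3d, Ppp1r3e and Ppp1r3f) were summed in each liver as a description. The sum was 214, 226, 113 and 108 TPM in control livers. It averaged 493 ± 102 TPM in livers labelled DKO and 459 ± 28.5 TPM in re-expression livers (SD, n = 4), and the lowest of these 8 livers, at 342 TPM, was above all control livers. Ppp1r3b and Ppp1r3c together made up 93.7% of the sum on average in control livers and 99.3% in each of the other groups. Ppp1r3g made up 0.391%, 0.774%, 9.08% and 8.64% of it in control replicates 1 to 4. The ratio of Ppp1r3b to Ppp1r3c averaged 1.70 ± 0.310, 1.34 ± 0.427 and 2.05 ± 0.804 in the 3 groups. In re-expression livers that ratio ran from 1.13 in replicate 1 to 2.95 in replicate 2, so the 2 genes did not keep 1 proportion from liver to liver.

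Other genes of glycogen metabolism were taken as 7 lists of 37 genes, of which 33 could be tested. Between livers labelled DKO and control livers 2 were called higher, Ppp1ca and Gckr, and 1 lower, Slc2a2, with a median of -0.03. Over all tested genes 2.99% were called higher and 2.34% lower. Between re-expression livers and livers labelled DKO 0 were called by limma and 0 by voom, 1 had an unadjusted p under 0.05 (6.19% of all tested genes did), and the median was 0.01. Between re-expression and control livers 1 was called higher, Ppp1ca, and 1 lower, Slc2a2, with a median of -0.01. Here 1.16% of all tested genes were called higher and 0.663% lower. Counts of 1 or 2 among 33 genes are too small to set these lists apart from those shares.

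PP1 itself has 3 catalytic subunits, which the targeting subunits hold on glycogen. Ppp1ca held 90.1, 91.2, 90.2 and 94.6 TPM in control livers, while livers labelled DKO held 119, 120, 123 and 110. Re-expression livers held 113, 109, 110 and 110 TPM. Every liver of both other groups was above every control liver. It rose by 0.36 in livers labelled DKO (95% interval 0.25 to 0.48, limma adjusted p = 0.00207, called in 23 of 23 alternatives) and by 0.27 in re-expression livers (95% interval 0.15 to 0.38, limma adjusted p = 0.0253). The second of these was called in 10 of 23 alternatives only, and not with control replicates 1 and 2 alone (adjusted p = 0.0552) or 3 and 4 alone (0.0885). Ppp1cc was at 40.0, 31.7 and 36.5 mean TPM in the 3 groups, with a difference of -0.32 in livers labelled DKO that limma did not call (adjusted p = 0.108), and Ppp1cb was at 33.1, 34.0 and 34.0. The authors' deposited table lists Ppp1cc at -0.333 with an adjusted p of 0.0313 in the comparison that follows this contrast.

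Of the targeting subunits outside the 9, Ppp1r3e alone had enough RNA to be tested, at a mean of 1.57, 2.12 and 2.35 TPM, and its difference in livers labelled DKO was 0.16 (limma adjusted p = 0.871). Ppp1r3d was under 1 TPM in all 12 livers. The muscle-type synthase gene Gys1 differed by -0.13 between livers labelled DKO and control livers and the brain-type phosphorylase gene Pygb by -0.10, neither of them called by limma. Gys1 held 2.32 mean TPM in control livers and Pygb 5.57, against 482 for Gys2 and 216 for Pygl. In the lists of other synthesis genes (3 tested), other breakdown genes (9 of 10 tested), kinases that act on glycogen enzymes (8) and lysosomal and glycogen quality genes (4), limma and voom called 0 genes in any of the 3 comparisons. An unadjusted p under 0.05 was reached by 2 of them, both kinase genes, in livers labelled DKO against control livers, where 18.4% of all tested genes reached it, and by 0 in the other comparisons.

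The entry and exit of glucose 6-phosphate formed the last list. Gckr, which encodes a regulatory protein of hepatic glucose use, rose from 152 ± 11.3 to 206 ± 10.8 TPM, a log2 difference of 0.44 (limma adjusted p = 0.00955, called in 22 of 23 alternatives). With control replicates 1 and 2 alone as controls the difference was 0.36 and the call was lost (adjusted p = 0.0513), and with replicates 3 and 4 alone it was 0.52 (0.0197). Gckr was at 194 ± 18.8 TPM in re-expression livers, a difference of 0.35 from control that was not called (adjusted p = 0.0550). Slc2a2, the GLUT2 glucose transporter of hepatocytes, fell from 299 ± 22.1 to 217 ± 6.61 TPM, a difference of -0.46 (limma adjusted p = 0.00166). Re-expression livers held 215 ± 9.37 TPM of Slc2a2, -0.47 from control (limma adjusted p = 0.00277), and both calls held in 23 of 23 alternatives.

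**Figure D4:**
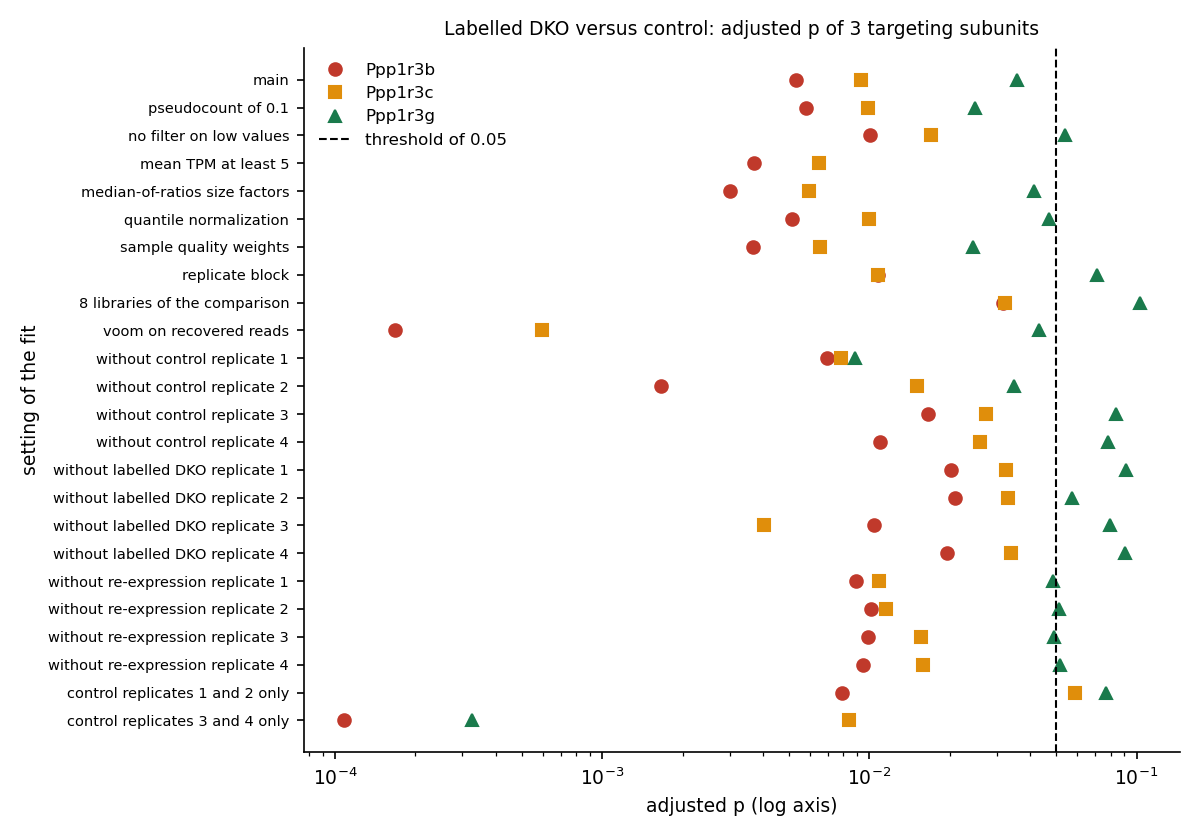
Adjusted p (horizontal, log axis) of the 3 targeting subunits between livers labelled DKO and control livers under the settings of the fit on the vertical axis, with the threshold of 0.05 as a dashed line. Ppp1r3b stays left of the line in each setting, Ppp1r3c in all but the setting with control replicates 1 and 2 only, and Ppp1r3g lies on both sides.

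The named genes most like each called member were found by the root mean square difference of log2(TPM + 1) values over the 12 livers after centring each gene, among 12280 tested genes with a gene symbol. Likeness to Ppp1r3b was closest for Slc30a10, a manganese transporter gene (0.303), Slc16a1, the monocarboxylate transporter MCT1 (0.322), and Dhrs9, a dehydrogenase that acts on retinol (0.347), where the median gene stood at 0.851. Slc16a1, for example, held 32.6, 37.6, 22.9 and 24.6 TPM in control livers and 79.2, 78.4, 88.3 and 77.1 in livers labelled DKO. For Ppp1r3c they were Sox9, a transcription factor gene of bile duct cells (0.355), Slc30a10 again (0.383) and Dtx4 (0.410), with a median of 0.955. Ppp1r3g had no gene as close: Dlec1, Fbf1 and Gpcpd1 stood at 0.623, 0.663 and 0.676, with a median of 1.25. Like Ppp1r3g, Dlec1 was higher in control replicates 3 and 4 (6.40 and 5.56 TPM) than in control replicates 1 and 2 (1.54 and 1.22). Fbf1 did not share that split, at 16.7, 7.35, 33.0 and 13.9 TPM in control replicates 1 to 4. Gpcpd1 was also higher in control replicates 3 and 4, but replicate 3 was little above replicate 1 (189, 147, 196 and 213 TPM). These distances are a description over livers that share their groups.

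Levels of other cell types' markers were set beside the targeting subunits. Of 7 stellate cell markers, 3 were called higher in livers labelled DKO than in control livers by limma (Reln, Lrat and Dcn) and 1 in re-expression livers (Reln). The shares called higher over all tested genes were 2.99% and 1.16%. Of 4 tested cholangiocyte markers 1 was called higher in both, Sox9, and of 8 hepatocyte markers 2 were higher in livers labelled DKO (Ttr and Cps1). The 8 differences ran from -0.21 to 0.38 with a median of 0.24. The lowest was that of Alb, at 23338 mean TPM in control livers and 20148 in livers labelled DKO, which limma did not call. For Alb the authors' deposited table lists -0.214 with an adjusted p of 0.0353 in the comparison that follows this contrast. It also lists the stellate cell marker Des at 0.794 with 0.0416 and the red blood cell marker Hbb-bs at 1.06 with 0.00301. Limma called neither. The stellate cell markers Col1a1, Col3a1 and Pdgfrb stand at 0.587, 0.134 and 0.505 there, and the other red blood cell markers at 0.0887 (Hba-a1) to 0.184 (Alas2). No Kupffer cell, endothelial or red blood cell marker was called by limma in these comparisons, although voom called 1 red blood cell marker in each. At an unadjusted p under 0.05 there were 8 of these 17 markers in livers labelled DKO against control livers, among them all 5 of red blood cells, and 5 in re-expression against control livers. Over all tested genes the shares at that threshold were 18.4% and 12.5%. Adipocyte markers summed to at most 1.24 TPM in any liver, with Adipoq and Lep at 0 in all 12. Skeletal muscle markers summed to 1.68 to 4.46 TPM in all livers but re-expression replicate 4, at 40.3 TPM, which held 139 TPM of Ppp1r3c, inside the range of its group. The part of these cell types in the differences of Ppp1r3b, Ppp1r3c and Ppp1r3g was not tested.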

How the data were processed

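RNA-seq of 12 mouse livers, 4 per group, was used. Per the labels' protocols, 1 library per liver was made from total RNA with a strand-specific kit. The submitters' processing notes name STAR 2.7.1a, featureCounts 2.0.1, DESeq2 1.36.0, SAMtools 1.9, bcl2fastq 2.17 and build mm10. No source used here says whether counting used strand, and reads of a gene and of an antisense partner cannot be told apart.

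The authors deposited TPM values for 48537 genes, with log2 fold changes and adjusted p-values of 3 comparisons that the file headers number but do not name. Comparison 1 followed livers labelled DKO minus control in these TPM values (median absolute log2 difference 0.0042 over 8250 genes) and comparison 2 followed re-expression minus DKO (0.0131 over 8251). The other one was not used.

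TPM is not a count, so limma 3.58.1 (R 4.3.3) was fitted to log2(TPM + 1) of the 17957 genes with a mean of at least 1 TPM, with 3 group means over all 12 libraries, 9 residual degrees of freedom, two-sided tests, a prior variance that follows mean level and Benjamini-Hochberg adjustment at 0.05. The libraries of YFP_Cre columns were taken as the livers labelled DKO and those of YFP_WT columns as re-expression livers. TPM times gene length less 199 bases gave whole reads for 100% of values within 0.01 reads, which served for depth, counting intervals and voom. Replicate livers differed by a chi-square of 4.59 to 15.58 per degree of freedom, so no pair agreed within sampling noise. The fit was first run on simulated reads, with the same spread beyond counting noise set for every gene. That run does not check calls of genes that vary as the targeting subunits did among control livers, or with reads as few as Ppp1r3g. Named genes were the 9 members, Nr1d1 and Nr1d2, called genes of the 7 other lists with 9 further pathway genes, and the 3 genes most like each called member, which makes 30; some of these are not reported here. Marker genes that were called, and muscle genes of 1 liver, fall outside this rule and were chosen after their values were seen. The members and all lists were chosen with earlier results of these data known. Positions are from GENCODE M21 on mm10, which held 47532 of the 48537 gene IDs. Alternatives were a pseudocount of 0.1, no filter, a minimum of 5 TPM, size factors, quantile normalization, sample weights, the replicate block, 8 libraries, voom, each library left out, and, added after the data were seen, control replicates 1 and 2 only or 3 and 4 only. Python 3.11.15 and matplotlib 3.10.9 were also used.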

Additional observations from a re-analysis of the deposited data

Results flagged for a closer look

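Within a group of 4 livers, 1 liver stood apart from the rest in 2 of 66 sets of values examined (22 genes in 3 groups), by the ratio of its gap to the group's range (Dixon's test at 95%). Chance alone marks about 1 in 20 such sets. Ppp1r3c in DKO replicate 3 was the lowest of its label at 113 TPM, with the other three livers at 251, 254 and 258 TPM and a gap of 0.953 of the range. Without that liver the call of Ppp1r3c between re-expression and control livers appeared (limma adjusted p = 0.0352), through the shared estimate of the spread. Ppp1r3g in DKO replicate 2 was the highest of its label at 0.511 TPM, which is 3 reads, with the other three at 0. With those livers tied at 0, any read at all would have been marked, so this mark says nothing beyond the low counts.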

How the results depend on the processing

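Of 23 alternatives none turned the direction of a called member. Ppp1r3b kept its calls in all of them, and an uncalled member took the other sign 8, 8 and 7 times in the 3 comparisons. The 3 called members between livers labelled DKO and control livers became 1 with control replicates 1 and 2 only, and 2 with the replicate block, where Ppp1r3g was lost (adjusted p = 0.0711). They were 2 to 3 with each library left out. The 1 called member between re-expression and control livers became 2 with a minimum of 5 TPM, size factors or voom, 3 with control replicates 3 and 4 only, and 1 to 3 with each library left out. The 2 called other pathway genes of that comparison became 1 with size factors, the block, 8 libraries or control replicates 1 and 2 only, and 1 to 2 with each library left out. Over all tested genes, 958 calls between livers labelled DKO and control livers became 559 with 8 libraries, 583 with control replicates 3 and 4 only and 573 to 922 with each library left out. The 13 between re-expression livers and livers labelled DKO became 36 with weights, 8 with the block, 20 with 8 libraries, 34 with voom, 23 with control replicates 3 and 4 only and 5 to 15 with each library left out. The 327 between re-expression and control livers became 209 with the block, 162 with 8 libraries, 537 with voom and 175 to 332 with each library left out. Fewer samples enter the fits with left-out libraries, and the cause of the other shifts was not tested. Same-numbered livers correlated from -0.069 to 0.137 in their deviations over 12 pairs, 1 of them over 0.1. In 4 of 12 cases a liver correlated best with its own number in the other group. These 4 were the re-expression livers against control livers (0.137, 0.038, 0.07 and 0.088 for replicates 1 to 4). In the comparisons with livers labelled DKO, every best match carried another number. Correlations this weak cannot decide whether the numbers pair re-expression with control livers. The second principal component fell from replicate 1 to 4 in control livers (26.9, 6.36, -43.8 and -48.71). It also fell in re-expression livers (30.28, 4.83, -1.21 and -8.48), but not in livers labelled DKO (3.44, 12.35, -2.12 and 20.16). Whether replicate numbers mark a shared batch was not tested. The main fit used no pairing, and the replicate block is given as an alternative. Depth limits Ppp1r3g, which 3 reads set at 0.464 to 0.550 TPM, and Gyg, with 34 to 52 reads per library.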

Other observations

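Muscle genes stood highest in 1 liver. In re-expression replicate 4 the actin gene Acta1 stood at 13.1 TPM, the fast myosin gene Myh4 at 7.03 and the myosin light chain gene Mylpf at 9.66, and Myh4 was at 0 in the 11 other livers. The muscle phosphorylase gene Pygm was at 3.02 TPM there, against 212 mean TPM for Pygl in that group. These genes were chosen after their values were seen.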
